A study of Mus musculus with 6 samples.

Results

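The genes described here are the MHC class I and antigen processing genes, a set of 10 among the 52459 gene symbols counted in whole brains of mouse embryos at E14.5. They are the rows of the count table with the symbols H2-K1, H2-D1, H2-T23, B2m, Tap1, Tap2, Tapbp, Nlrc5, Psmb8 and Psmb9, and all 10 passed the filter on low counts that left 19565 genes. The genes were chosen by a list of symbols drawn up with the measured fold changes between these 6 libraries in view. Their values between genotypes are therefore a description of these samples and not independent evidence. The series compared 3 knockout libraries (Mfsd7c-/-, with no promoter or Cre named) with 3 wild-type libraries, called KO1 to KO3 and WT1 to WT3, all from C57BL/6 embryos of the same age with no treatment named. Mfsd7c, now named Flvcr2, encodes a membrane transporter of brain endothelium. The labels do not say whether the embryos came from separate litters, so p-values speak only for the variation among these 6 libraries, which may be partly technical.

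MHC class I molecules are pairs of a polymorphic heavy chain and the invariant light chain beta-2-microglobulin, and they carry peptides to the cell surface for inspection by CD8 T cells and natural killer cells. The peptides are cut by the proteasome, whose catalytic subunits can be exchanged for interferon-inducible ones, pumped into the endoplasmic reticulum by the TAP transporter, and loaded with the help of tapasin. NLRC5 is a transactivator of class I promoters. In brain, class I is low in most neural cells and higher in endothelium and microglia.

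H2-K1, a classical class I heavy chain, was the 1 gene of the 10 that rose in the knockout brains in the test over all genes. Of the 10 genes 1 rose, 0 fell and 9 did not pass (edgeR quasi-likelihood test, Benjamini-Hochberg adjusted over 19565 genes at an FDR of 0.05), where 0.659% of all tested genes passed, 0.624% higher and 0.0358% lower. Log2 fold changes were above 0 for 9 of the 10, against 47.4% of all tested genes. Their median was 0.42, against -0.01 over all tested genes, and they ran from -0.05 (Tapbp) to 0.98 (Tap2). Knockout values lay wholly above wild-type values for 4 of the 10, H2-K1, Tap2, Psmb8 and Psmb9, as they did for 7.84% of all tested genes. At an unadjusted p of 0.05, 5 of the 10 would count, all of them higher, against 8.09% of all tested genes in either direction and 4.63% higher. In bulk tissue, fewer or more cells of a type and less or more RNA per cell cannot be told apart. Levels are given as CPM, a gene's counts relative to its library's total after scaling by TMM (edgeR's trimmed mean of M-values).

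**Figure D1:**
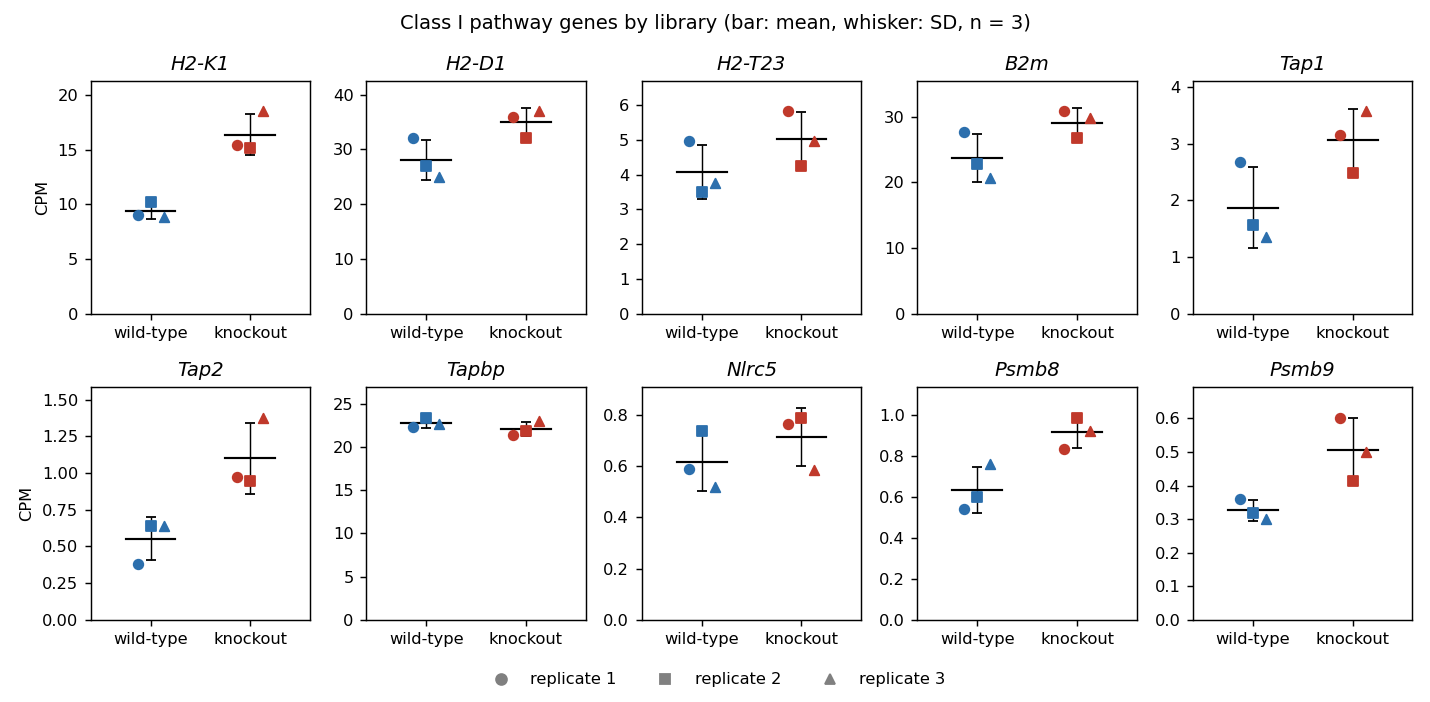
CPM of each of the 10 genes in each library (points, shaped by replicate number), with the mean (bar) and SD (whisker) of the 3 wild-type (blue) and 3 knockout (red) libraries. H2-K1 sits between 15.1 and 18.5 CPM in knockout and between 8.84 and 10.2 CPM in wild-type, and WT1 is the highest wild-type library for H2-D1, H2-T23, B2m, Tap1 and Psmb9.

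The libraries held 43784619 to 50549673 counts. Mfsd7c itself had 119 to 130 counts in the knockout libraries and 206 to 291 in the wild-type libraries, a fall on the log2 scale (-0.96, SE 0.147, edgeR adjusted p = 0.0271). The libraries also differed in ways other than genotype. High Hoxb3 and high Xist occurred in wild-type libraries only, so these differences lie partly along genotype. KO1 and WT1 held the most of the epidermal keratin Krt5, at 105 and 79.9 CPM. In WT2 and WT3, Hoxb3, which marks the caudal neural tube, reached 14.3 and 6.28 CPM, and elsewhere it was 0.676 CPM or less. WT2 was the 1 library with abundant Xist. Of all beta-globin counts, embryonic forms held 2.80% to 5.03% in KO1, KO3 and WT1, and 23.3% to 26.5% in the other 3 libraries.

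The heavy chains were taken first. H2-K1 (ENSMUSG00000061232.16) lies on chromosome 17 from 33996017 to 34000347 on the minus strand in GENCODE M21 on GRCm38. It stood at 15.4, 15.1 and 18.5 CPM in KO1 to KO3, against 9.06, 10.2 and 8.84 CPM in WT1 to WT3. Every knockout library lay above every wild-type library. The means were 16.3 ± 1.86 CPM (SD, n = 3) and 9.36 ± 0.710 CPM (SD, n = 3), a 1.75-fold difference. The log2 fold change was 0.81 (SE 0.113, unadjusted 95% interval 0.55 to 1.06, edgeR adjusted p = 0.0184). In the authors' deposited table H2-K1 had a log2 fold change of 0.81 (DESeq2 adjusted p = 9.9e-08), from the same 6 libraries. It was the 1 gene of the 10 past an adjusted p of 0.05 in the authors' deposited table, where 1.22% of genes with an adjusted p passed and were higher in knockout.

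The size of the H2-K1 difference held when libraries were left out, but its call did not. Leaving out each library in turn gave log2 fold changes from 0.71 to 0.87. H2-K1 missed the threshold without KO1 (edgeR adjusted p = 0.0675), KO3 (0.111), WT2 (0.0751) or WT3 (0.118), and there 0.255%, 0.204%, 0.180% and 0.220% of all tested genes passed. Leaving out WT2 with WT3, the pair high in Hoxb3, gave 0.163. H2-K1 still passed without KO2 (0.0358, with 0.555% of all genes) and without WT1 (0.0131). It was also the 1 gene of the 10 to pass with DESeq2 size factors (0.654% of all genes), upper-quartile factors (0.649%), no filter on low counts (0.620%), at least 10 counts in every library (0.663%), the DESeq2 Wald test (1.57%), limma-voom (0.603%) and a beta-globin covariate (1.34%). Within the libraries with little embryonic beta-globin, knockout exceeded wild-type by 0.90 on the log2 CPM scale (2 knockout, 1 wild-type), and within the other libraries by 0.67 (1 knockout, 2 wild-type).

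H2-D1, the other classical heavy chain (ENSMUSG00000073411.11, chromosome 17 from 35262730 to 35267499), was at 35.9, 32.0 and 36.9 CPM in knockout and at 32.1, 27.0 and 24.98 CPM in WT1 to WT3. The groups met at KO2 and WT1. The log2 fold change was 0.32 (SE 0.104, edgeR adjusted p = 0.423). H2-T23, which encodes the non-classical heavy chain Qa-1 recognised by inhibitory receptors of natural killer cells, was at 5.82, 4.26 and 4.97 CPM in knockout and 4.96, 3.50 and 3.75 CPM in wild-type libraries. Its groups overlapped, and the difference on the log2 scale was 0.30 (SE 0.185, edgeR adjusted p = 0.738). It ranged from 0.18 to 0.47 when single libraries were left out and was 0.019 without WT2 and WT3.

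B2m, the light chain (ENSMUSG00000060802.8, chromosome 2 from 122147686 to 122153083), was at 30.8, 26.7 and 29.8 CPM in knockout and 27.7, 22.7 and 20.6 CPM in WT1 to WT3. WT1 lay within the knockout range and the other wild-type libraries below it. The log2 fold change was 0.30 (SE 0.113, edgeR adjusted p = 0.533).

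H2-D1 and B2m kept nearly the same ratio in every library, and H2-K1 did not keep it. H2-D1 counts were 116%, 120% and 124% of B2m counts in KO1 to KO3, against 116%, 119% and 121% in WT1 to WT3. H2-K1 counts were 50.1%, 56.7% and 62.0% of B2m counts in knockout, and 32.7%, 44.7% and 42.8% in wild-type libraries. As a share of H2-D1 counts, H2-K1 stood at 46.8% ± 3.53 (SD, n = 3) in knockout and 33.8% ± 4.92 (SD, n = 3) in wild-type, with no overlap between groups. These ratios need no library scaling. They are also part of the comparison that chose the set, and no test is attached to them.

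The promoters of these 3 genes are shown because H2-K1 passed the test and H2-D1 did not, with nearly the same upstream sequence. The difference between their fold changes was not tested. RefSeq promoter windows on GRCm38.p6, from 250 bases before the start site to 50 after it, were found for 8 of the 10 genes, and Tap2 and Nlrc5 were not matched. A stretch of 108 bases of each is printed 5′ to 3′ on the gene's own strand: H2-K1 from chr17:34000355-34000462 on the minus strand, H2-D1 from chr17:35262919-35263026 on the plus strand and B2m from chr2:122147535-122147642 on the plus strand. Capitals mark, in order, the NF-kB site of enhancer A (H2-K1 and H2-D1) or the interferon stimulated response element core (B2m), then the cAMP response element core TGACG, then the Y box ATTGG bound by NF-Y.
H2-K1: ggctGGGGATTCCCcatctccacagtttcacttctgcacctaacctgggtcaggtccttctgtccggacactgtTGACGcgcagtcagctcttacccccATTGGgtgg
H2-D1: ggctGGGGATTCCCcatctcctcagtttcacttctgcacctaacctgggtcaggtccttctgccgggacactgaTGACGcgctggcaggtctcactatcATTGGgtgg
B2m: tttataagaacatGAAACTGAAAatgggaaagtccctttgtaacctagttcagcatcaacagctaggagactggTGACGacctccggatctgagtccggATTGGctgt

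The H2-K1 and H2-D1 stretches were identical at 97 of 108 positions, 89.8%. B2m matched H2-K1 at 46 of 108 positions in the same frame, where the frame was set by the TGACG and ATTGG matches. All 3 genes held TGACG and ATTGG with their first bases 25 bases apart. That spacing was noticed in these sequences and then counted. Of 32851 promoter windows in the table, 31 held it in either orientation (0.0944%), from 27 genes, among them H2-K1, H2-D1, B2m and 1 other H2 gene, the non-classical heavy chain H2-M3. The pair is part of the S-X-Y module of class I promoters, on which NLRC5 acts with RFX, CREB family and NF-Y proteins. A match is a description of letters and does not show that a factor was bound. Only exact matches to the patterns searched were put in capitals, so lower case does not show that an element is absent.

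Single motifs were searched on both strands of the 300-base windows, with overlapping matches allowed. The NF-kB site was present in H2-K1 and H2-D1 and in 1.75% of all windows. The interferon stimulated response element core was present in B2m and H2-T23 and in 3.44% of all windows. Only exact matches to a fixed pattern were counted for it, and near matches were not searched. The search therefore does not show that H2-K1 and H2-D1 lack an interferon response element. The STAT core TTCNNNGAA was present in Psmb8, 1 of the 8 genes, and in 8.30% of windows. ATTGG was present in 7 of the 8 genes and in 37.4% of windows, and TGACG in 5 of the 8 genes and in 20.8% of windows.

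Of the peptide transporter genes, Tap2 had the largest fold change of the 10, from few reads. Tap1 and Tap2 encode the partner subunits of the TAP heterodimer that moves peptides into the endoplasmic reticulum. Tap2 had 42, 48 and 66 counts in knockout and 17, 32 and 32 in WT1 to WT3, or 0.973, 0.946 and 1.38 CPM against 0.383, 0.637 and 0.638 CPM. All knockout libraries lay above all wild-type libraries. The log2 fold change was 0.98 (SE 0.296, unadjusted 95% interval 0.31 to 1.66, edgeR adjusted p = 0.363). Tap1 was at 3.15, 2.48 and 3.57 CPM in knockout and 2.68, 1.57 and 1.36 CPM in WT1 to WT3. WT1 stood above KO2, and the log2 fold change was 0.72 (SE 0.279, edgeR adjusted p = 0.539).

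Tapbp encodes tapasin, which bridges TAP and empty class I molecules. It was the 1 gene of the 10 with a log2 fold change below 0. It was at 21.3, 21.8 and 23.0 CPM in knockout and 22.3, 23.4 and 22.6 CPM in wild-type libraries, and the groups overlapped. The log2 fold change was -0.05 (SE 0.0698, unadjusted 95% interval -0.21 to 0.11, edgeR adjusted p = 0.904), the narrowest interval of the 10.

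The inducible proteasome subunits Psmb8 and Psmb9 were scarce in both groups. Psmb8 had 36, 50 and 44 counts in knockout and 24, 30 and 38 in WT1 to WT3, or 0.913 ± 0.0758 against 0.632 ± 0.113 CPM (SD, n = 3). Its log2 fold change was 0.53 (SE 0.248, edgeR adjusted p = 0.641). Psmb9 had 26, 21 and 24 counts in knockout and 16, 16 and 15 in wild-type libraries, and the difference on the log2 scale was 0.63 (SE 0.302, edgeR adjusted p = 0.652). On the CPM scale neither group pair overlapped, while the Psmb8 counts themselves did (36 in KO1, 38 in WT3), and both unadjusted 95% intervals reached below 0, to -0.04 and -0.06.

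Each inducible subunit takes the place of a constitutive one, so the pairs were set side by side. Psmb8 counts were 0.929%, 1.10% and 1.02% of Psmb5 counts in knockout and 0.488%, 0.639% and 0.788% in WT1 to WT3. Psmb9 counts were 0.433%, 0.288% and 0.375% of Psmb6 counts in knockout and 0.225%, 0.222% and 0.206% in wild-type libraries. Both ratios lay higher in each knockout library than in each wild-type library. They use the same few Psmb8 and Psmb9 counts, so they add no separate evidence. Psmb5 itself lay lower in each knockout library, at 89.7 ± 0.368 against 100.2 ± 9.43 CPM (SD, n = 3), as did 6.58% of all tested genes. Psmb6 overlapped between groups. Psmb10, the third inducible subunit, was at 11.4% ± 0.718 of Psmb7 counts in knockout and 12.01% ± 0.922 in wild-type (SD, n = 3), and the groups overlapped.

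Nlrc5, the transactivator, was scarce and overlapped between groups. It had 33, 40 and 28 counts in knockout and 26, 37 and 26 in WT1 to WT3. The log2 fold change was 0.21 (SE 0.272, unadjusted 95% interval -0.41 to 0.83, edgeR adjusted p = 0.886), an interval that holds both no change and the H2-K1 estimate. Leaving out single libraries gave 0.11 to 0.37.

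**Figure D2:**
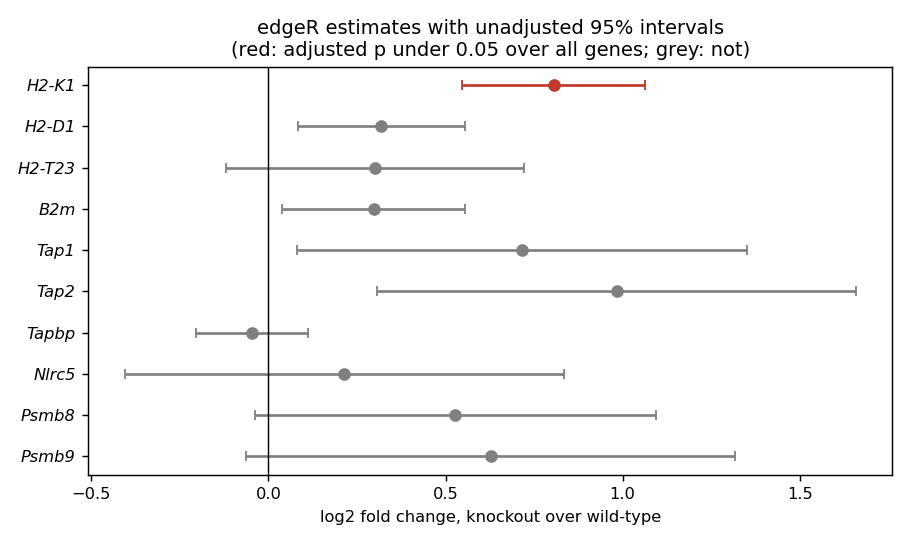
Log2 fold change of each of the 10 genes, knockout over wild-type, with its unadjusted 95% interval from the edgeR fit. H2-K1 at 0.81 is the 1 gene with an adjusted p under 0.05, Tap2 at 0.98 has a wider interval, and Tapbp at -0.05 has the narrowest.

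Per length, the light chain, the classical heavy chains and Tapbp stood above the transporter, inducible proteasome and Nlrc5 transcripts. Levels between genes are compared as CPM per kilobase of the union of annotated exons, averaged over the 6 libraries. The order was B2m at 30.7, H2-D1 at 12.2, Tapbp at 6.18, H2-K1 at 4.37, H2-T23 at 1.57, Tap1 at 0.451, Psmb8 at 0.228, Tap2 at 0.218, Psmb9 at 0.114 and Nlrc5 at 0.0781 CPM per kilobase. On this length Psmb8 and Tap2 overlapped within each group, and so did Psmb9 and Nlrc5 in wild-type libraries. H2-K1 overlapped Tapbp in knockout, at 5.56 ± 0.633 against 6.08 ± 0.233 CPM per kilobase (SD, n = 3), and lay below it in wild-type, at 3.18 ± 0.242 against 6.28 ± 0.155. With the longest transcript as the length, the order of the 6-library means was the same, but these neighbours stood differently within groups. H2-K1 then lay above Tapbp in knockout, at 8.72 ± 0.993 against 7.61 ± 0.292 CPM per kilobase (SD, n = 3), and below it in wild-type, at 4.99 ± 0.379 against 7.86 ± 0.194. Psmb8 lay above Tap2 on that length in both groups, at 0.479 ± 0.0398 against 0.319 ± 0.0701 CPM per kilobase in knockout and 0.331 ± 0.0591 against 0.161 ± 0.0426 in wild-type (SD, n = 3). Psmb9 lay above Nlrc5 in both groups as well. The order of the knockout means therefore depends on the length used for Tapbp with H2-K1 and for Psmb8 with Tap2. The wild-type means kept their order, and so did Psmb9 with Nlrc5.

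**Figure D3:**
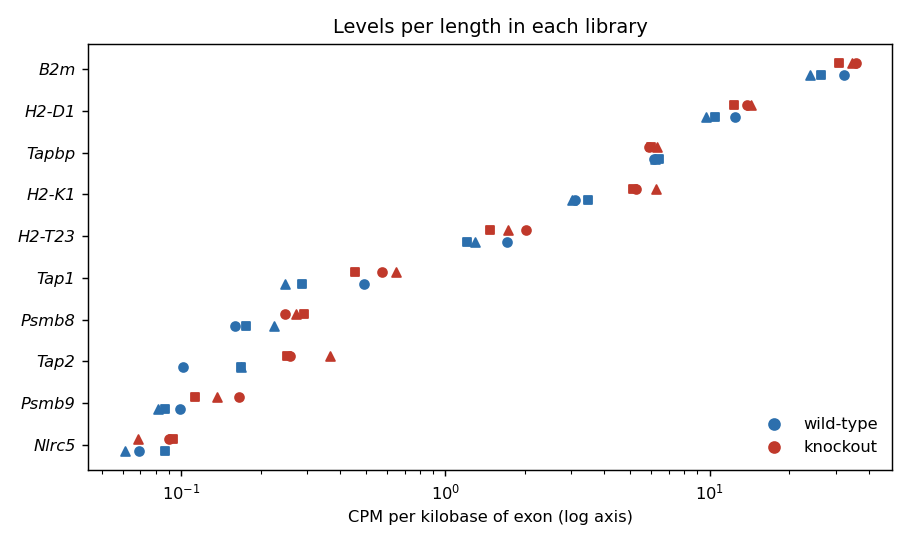
CPM per kilobase of exon (log axis) of the 10 genes in each wild-type (blue) and knockout (red) library, shaped by replicate as in the plot of CPM by library. B2m is highest at 30.7 and Nlrc5 lowest at 0.0781 on average, and H2-K1 in knockout overlaps Tapbp on this length.

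Several of these counts could include reads of other genes, since neither the strand setting nor the treatment of shared reads is known. Of all 50-base windows of the longest GENCODE transcript, 8.11% for H2-K1, 14.3% for H2-D1 and 16.0% for H2-T23 occurred exactly in transcripts of another gene. The leading partners were H2-D1, H2-Q1 and H2-T-ps. Tap2 shared 12.6%, most of them with Gm15821, and Psmb8 4.95%, with Gm20496. Both partners lie on the opposite strand and had at most 3 counts in any library. Tap1 shared 0.647%. B2m, Nlrc5 and Psmb9 shared 0 such windows of their longest transcript. Exons of Nlrc5 overlap those of 9330175E14Rik by up to 78 bases on the opposite strand. Tap1 and Psmb9 are transcribed away from each other from start sites 226 bases apart, and their exons overlap by up to 212 bases on opposite strands. Tapbp shared 21.0% of its windows with other genes, most of them with the antisense gene Gm19412, which had 1 to 5 counts per library. Its exons also overlap those of Zbtb22 by up to 88 bases on the same strand, and Zbtb22 had 1779 to 2150 counts per library, more than Tapbp.

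Of the 10 genes, 8 lie on chromosome 17 between 33915899 and 36032855, the MHC, and B2m and Nlrc5 lie on chromosomes 2 and 8. In GENCODE M21 on GRCm38, Tapbp spans 33915899 to 33929292, Psmb9 34181987 to 34187764, Tap1 34187553 to 34197225, Psmb8 34197721 to 34201454, Tap2 34203527 to 34216321 and H2-T23 36029773 to 36032855. Nlrc5 spans 94434356 to 94527272 on chromosome 8. The other 109 tested genes of that interval had a median log2 fold change of -0.01. Among them 1 rose (H2-Ab1) and 0 fell in the edgeR test, and 50 of 109 had a log2 fold change above 0. The 15 that are H2 genes had a median of 0.21, with 11 above 0, 5 at an unadjusted p of 0.05, and knockout wholly above wild-type for 5 and wholly below for 1. Over all tested genes 47.4% were above 0, and knockout lay wholly above wild-type for 7.84%. The 94 others had a median of -0.05, with 0 called, 11 at an unadjusted p of 0.05 (8.09% of all tested genes), and knockout wholly above wild-type for 3 and wholly below for 9, where 6.58% of all tested genes lay wholly below. The interval was chosen after the values were seen.

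Which of the 10 genes passed changed most when WT1 was left out. Without it 4 passed, H2-K1, H2-D1, B2m and Tap1, where 1.94% of all tested genes did. H2-D1 then had a log2 fold change of 0.43 (edgeR adjusted p = 0.0337), B2m 0.42 (adjusted p = 0.0422) and Tap1 1.07 (adjusted p = 0.0463). Without both Krt5-rich libraries, KO1 and WT1, 3 passed, H2-K1, H2-D1 and Tap1, where 2.31% of all genes did. Without WT2 and WT3, where the lone wild-type library is assumed to vary like the others, 0 passed against 0.0968% of all genes. In that fit the log2 fold change was 0.08 for B2m, 0.13 for H2-D1, 0.20 for Tap1 and 0.85 for H2-K1. In each of the 16 alternative fits 9 of the 10 estimates were above 0 and Tapbp was below 0.

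**Figure D4:**
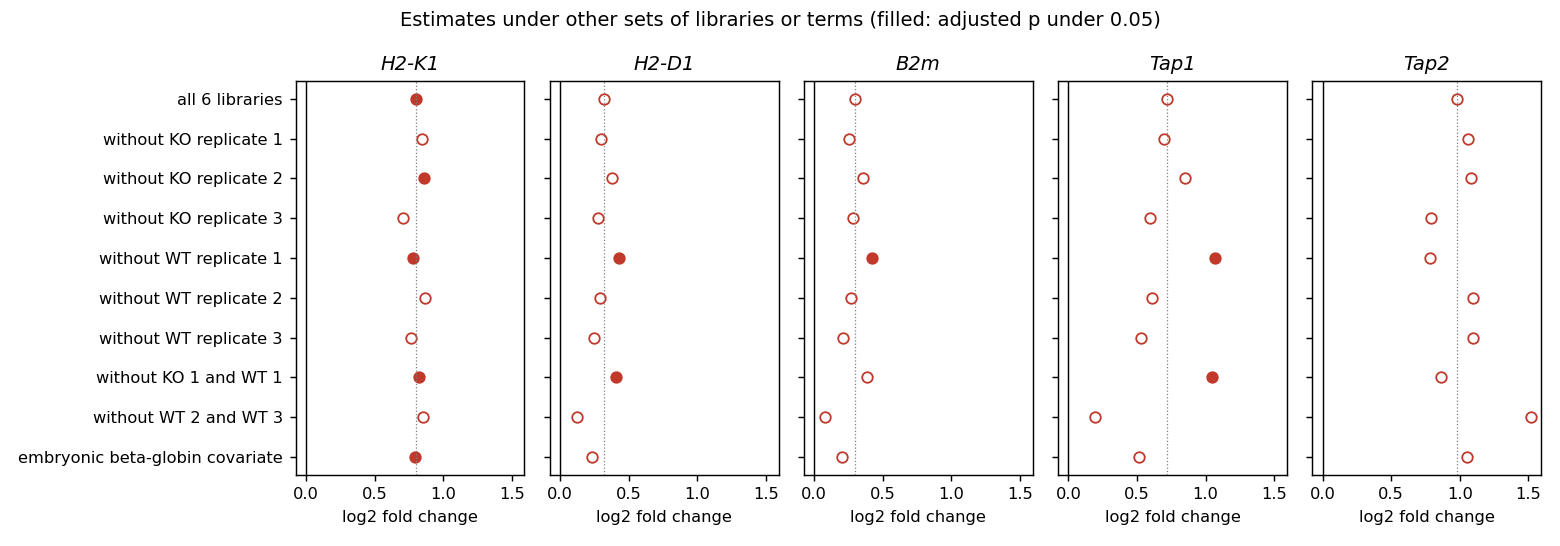
Log2 fold change of H2-K1, H2-D1, B2m, Tap1 and Tap2 with all 6 libraries and under other sets of libraries or model terms; filled points have an adjusted p under 0.05 and the dotted line marks the estimate from all libraries. H2-K1 stays between 0.71 and 0.87, and Tap1 ranges from 0.20 without WT2 and WT3 to 1.07 without WT1.

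The genes around this pathway were read from lists of their own. Of 20 further class I heavy chain and class I-like genes, 16 were tested, and 0 rose and 0 fell in edgeR, with 4 at an unadjusted p of 0.05 (8.09% of all tested genes), while DESeq2 and limma-voom also called 0. Their median log2 fold change was 0.19, with 10 above 0. H2-Q7, a Qa-2 heavy chain, was at 2.57, 2.09 and 3.88 CPM in knockout and 1.92, 1.31 and 1.40 CPM in WT1 to WT3, with a log2 fold change of 0.89 (edgeR adjusted p = 0.374). H2-Q2 was at 1.51 ± 0.458 against 0.810 ± 0.343 CPM (SD, n = 3), with overlapping groups and an edgeR adjusted p = 0.552. H2-Q10, a soluble heavy chain best known from liver, was at 0.0399 to 0.355 CPM (edgeR adjusted p = 0.408). The fourth gene at an unadjusted p of 0.05 was Cd1d1, a lipid-presenting class I-like gene named after its values were seen, which had the opposite sign. It was at 17.9 ± 3.21 CPM in knockout and 24.3 ± 5.23 CPM in wild-type (SD, n = 3), with overlap (log2 fold change -0.44, edgeR adjusted p = 0.567). Over the alternative fits its estimate ran from -0.61 to -0.040. The H2-Q genes are close copies of each other and of H2-D1, and their counts are uncertain for that reason.

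Of 13 further genes of peptide supply and loading, 0 rose and 0 fell in edgeR, and DESeq2 and limma-voom called 0. At an unadjusted p of 0.05 there were 2, against 8.09% of all tested genes. The median of the 13 was 0.03. Lnpep, an aminopeptidase of the cross-presentation pathway, had a log2 fold change of 0.23 (edgeR adjusted p = 0.528), and Erap1, which trims peptides in the endoplasmic reticulum, 0.26 (adjusted p = 0.632). Rfx5, a subunit of the RFX complex that binds the X box, was at 15.3, 21.8 and 19.3 CPM in knockout and 19.5, 28.7 and 28.5 CPM in wild-type libraries. Its log2 fold change was -0.44 (edgeR adjusted p = 0.557), with overlapping groups. WT1 stood near the knockout libraries, and the estimate was -0.046 without WT2 and WT3 and -0.60 without WT1.

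Of 14 constitutive proteasome subunits, 0 rose and 0 fell in edgeR, and DESeq2 and limma-voom called 0. At an unadjusted p of 0.05 there were 3, against 8.09% of all tested genes. The log2 fold changes of the 14 lay between -0.17 and 0.04, with 12 below 0 and a median of -0.06. Over all tested genes 47.4% were above 0. The lowest p-values belonged to Psmb3 at -0.17, Psmb7 at -0.16 and Psmb5 at -0.16 on the log2 scale (edgeR adjusted p = 0.574, 0.604 and 0.615).

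Genes of the interferon response, which induces this pathway in many cells, did not pass. Of 37 listed, 34 were tested, 0 rose and 0 fell in edgeR, and DESeq2 and limma-voom called 0. An unadjusted p under 0.05 was reached by 5 of the 34, against 8.09% of all tested genes. The median of the 34 was 0.05, with 18 above 0 and 16 below. Some scarce genes, named after their values were seen, were highest in KO3. Ifit1 was at 1.61 CPM in KO3 and 0.160 to 0.744 CPM elsewhere. Ifit3 was at 1.96 against 0.358 to 0.879 CPM, and Rsad2 at 2.00 against 0.358 to 0.950 CPM. Others were not highest there, such as Isg15 (1.67 CPM in KO3, 1.71 in WT1) and Ifit2 (9.58 in KO3, 12.4 in KO1). A link to the class I values was not tested. The lowest p-values belonged to Irf8, a transcription factor of myeloid cells, at 4.13 ± 0.367 against 2.86 ± 0.210 CPM (SD, n = 3, edgeR adjusted p = 0.325), to Bst2 (tetherin) at a log2 fold change of 0.46 (adjusted p = 0.378) and to Trim30a at 0.66 (adjusted p = 0.432). Of 12 genes for interferon receptors, their kinases and NF-kB, 0 rose and 0 fell in edgeR, and DESeq2 and limma-voom called 0. Here 2 of the 12 had an unadjusted p under 0.05, against the same 8.09% of all tested genes. Nfkb2, an NF-kB subunit, was at 8.27, 7.02 and 7.76 CPM in knockout and 6.13, 5.69 and 4.93 CPM in wild-type libraries, with no overlap (log2 fold change 0.46, edgeR adjusted p = 0.328). Tyk2 was at -0.20 (adjusted p = 0.545) and Nfkbia at 0.18 (adjusted p = 0.676) on the log2 scale.

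H2-Ab1, the beta chain of the class II molecule I-A, rose in the knockout brains. It was the 1 gene of 7 tested class II genes to pass, where 0.624% of all tested genes rose. It was at 1.83, 1.203 and 1.88 CPM in knockout and 0.383, 0.358 and 0.479 CPM in WT1 to WT3. The knockout libraries all lay above the wild-type libraries, and the difference on the log2 scale was 2.00 (SE 0.276, edgeR adjusted p = 0.0166). Its partner chain H2-Aa overlapped between groups at 0.271 ± 0.0826 against 0.246 ± 0.0995 CPM (SD, n = 3), and Cd74, the invariant chain of class II, did too at 0.701 ± 0.217 against 0.656 ± 0.296 CPM. The H2-Ab1 call was lost in 4 of 6 fits that left out 1 library, with adjusted p = 0.0875 without KO1, 0.139 without KO3, 0.124 without WT2 and 0.0804 without WT3. It was also lost without WT2 and WT3 together (adjusted p = 0.208).

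**Figure D5:**
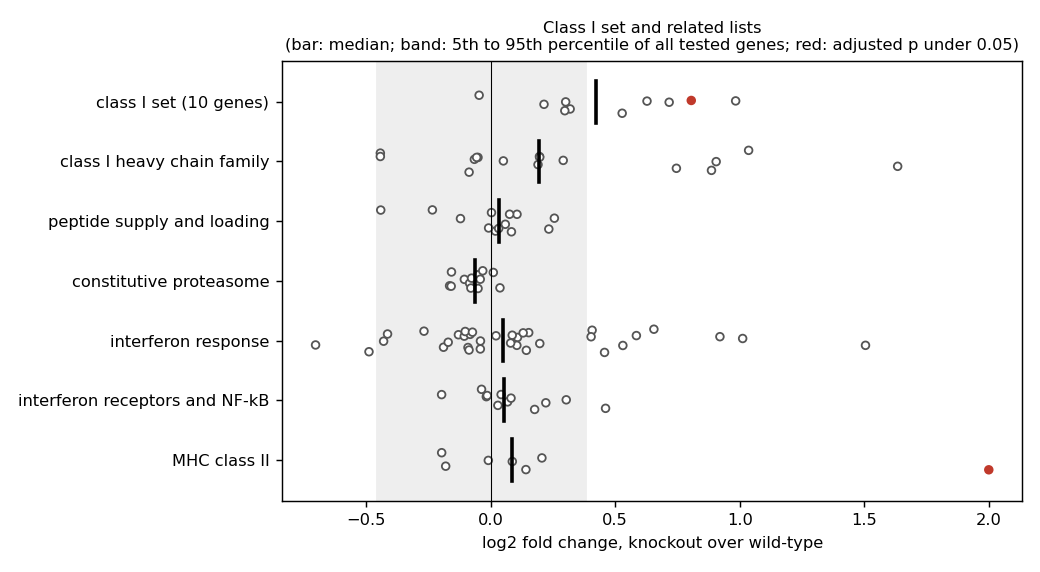
Log2 fold change of each tested gene of the 10-gene class I set and of the related lists; bars are medians, the grey band holds the 5th to 95th percentile of all tested genes (-0.46 to 0.38) and red points have an adjusted p under 0.05. The class I set has a median of 0.42 and the constitutive proteasome genes lie closest together.

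Markers of the cell types that carry class I were read beside these values. The 14 endothelial markers summed to 522 to 580 CPM in knockout and 371 to 440 CPM in wild-type libraries, without overlap. In edgeR 6 of the 14 rose and 1 fell, where 0.624% of all tested genes rose and 0.0358% fell. The 14 did not move together, though 11 had a log2 fold change above 0. It was 1.22 for Flt1, 1.14 for Cd34 and 1.00 for Pecam1, but 0.19 for Cdh5, 0.15 for Kdr, -0.49 for Tek and -0.50 for Cldn5. The sum is therefore not a measure of endothelial content alone. The 20 microglia and macrophage markers summed to 213 to 244 CPM in knockout and 195 to 214 CPM in wild-type, with overlap. Of the 20, 17 had a log2 fold change above 0, against 47.4% of all tested genes, and 0 passed. The 13 lymphocyte and natural killer cell markers summed to 1.04 to 1.55 CPM in all libraries, and Ncr1 had 0 counts in each. Meningeal fibroblast markers summed to 1150 to 1370 CPM in knockout and 995 to 1860 CPM in wild-type, highest in WT1, and epidermal markers to 18.5 to 441 CPM, highest in KO1 and WT1. The erythroid markers, 9 of 10 in the table, summed to 3535, 1768 and 3605 CPM in KO1 to KO3 and 2480, 1154 and 1246 CPM in WT1 to WT3, with 8 of 9 log2 fold changes above 0 and a median of 0.82. KO1 and KO3 were highest, WT1 lay above KO2, and WT2 and WT3 were lowest, which is also how B2m and H2-D1 stood. The 8 pericyte markers summed to 199 to 227 CPM in knockout and 282 to 292 CPM in wild-type, without overlap, and 1 of the 8 fell. The neural markers summed to 5457 to 6187 CPM, so neural tissue was present in each library. That sum does not show that the same parts of the tissue were taken, and Krt5 and Hoxb3 differed between libraries. The part of these cell types in the class I values was not tested.

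Set against the endothelial sum, the 10 genes took different courses. H2-K1 was 2.92%, 2.90% and 3.19% of the endothelial sum in knockout and 2.44%, 2.31% and 2.06% in WT1 to WT3, and the groups did not overlap. H2-D1 stood at 6.43% ± 0.333 against 6.86% ± 1.54 and B2m at 5.36% ± 0.406 against 5.81% ± 1.43 (SD, n = 3), both overlapping. Tapbp, at 4.06% ± 0.112 against 5.53% ± 0.409, lay lower in each knockout library. Its own CPM overlapped between groups, and the endothelial sum was higher in each knockout library. The lower Tapbp ratio therefore follows from the denominator. Against the microglia and macrophage sum, H2-K1 was at 7.28% ± 0.268 in knockout and 4.64% ± 0.507 in wild-type, also without overlap. On that denominator H2-D1, at 15.6% ± 0.922 against 13.8% ± 1.148 (SD, n = 3), Tap2 and Psmb9 also lay higher in each knockout library, and Tapbp lower. Tap2 lay higher against the endothelial sum too. The endothelial markers did not move together, so a ratio to their sum is not a level per endothelial cell. All of these ratios were added after the marker sums were seen. The share of all tested genes without overlap on these denominators was not computed.

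The genes most like H2-K1 across the 6 libraries were found by the root mean square difference of log2 CPM, each gene centred on its mean. The search covered 13642 genes with a mean of at least 1 CPM, leaving out the 10 genes and all clone and predicted-gene names. The nearest to H2-K1 were Lcp1 (0.054), Tmem204 (0.055), Eng (0.066), A2m (0.076) and Il2rg (0.080). No gene of the 10 was as near to H2-K1, the nearest being Psmb9 at 0.22. The genes most like B2m were Ccng1 (0.037), Sec24d (0.041), Samd12 (0.044), Lipt2 (0.047) and Igfbp5 (0.051), and H2-D1 was nearer still at 0.033. These distances are descriptions over 6 libraries, chosen as the smallest among many genes.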

How the data were processed

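Whole brains of 3 knockout and 3 wild-type embryos at E14.5 were profiled by RNA sequencing. The deposited counts are unnormalized whole reads per gene symbol. The submitters' processing notes name STAR 2.5.2a, featureCounts, DESeq2 1.12.4 and the builds mm10 and hg19. They do not state an annotation release, a strand setting or how shared reads were counted. The authors' table also gives, per the file headers, a mean normalized signal, log2 fold changes with their errors, a Wald score and p-values. Its log2 fold changes are positive where the knockout counts are higher.

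Genes kept by filterByExpr in edgeR 4.0.16 were scaled by TMM and tested by the robust quasi-likelihood test, with the SE taken as the log2 fold change over the square root of F. The 10 genes, the lists, the naming rule and the alternatives were chosen with earlier results of these data known. The rule names the 10 genes, each list gene that passed or else the 3 lowest p-values of a list, and the 5 genes nearest to H2-K1 and to B2m. H2-Aa, Cd74, Psmb6 and Psmb10 were named as partners of those genes, and H2-M3 for its promoter. In simulated counts for this comparison over 19257 genes, 62% of 50 genes changed 1.5-fold were recovered and 76% at 2-fold, and 5.95% of calls were false. The changed genes were drawn from those with a mean of at least 1 CPM. Tap2, Psmb8, Psmb9 and Nlrc5 lay below that mean, so these rates do not cover them. The simulation also held no differences between libraries such as those in Krt5, Hoxb3 or beta-globin. The alternatives were other scalings, filters and tools (DESeq2 1.42.0, limma 3.58.1), a replicate block, libraries left out and a beta-globin covariate, run in R 4.3.3. The common coefficient of variation between samples was 15.3%, so counting error matters mainly for the scarcest genes, here Psmb9, Psmb8, Nlrc5 and Tap2. Coordinates and lengths are from GENCODE M21 (GRCm38). The values within libraries of low or high embryonic beta-globin share and the 50-base window check were added after seeing the data.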

Additional observations from a re-analysis of the deposited data

How the results depend on the processing

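Of the 10 class I genes 1 passed with all libraries, 0 to 4 when single libraries were left out, 3 without KO1 and WT1, 0 without WT2 and WT3 and 0 at an FDR of 0.01. No estimate of the 10 changed sign in any of the 16 fits. Over all genes 129 passed, against 211 with no low-count filter, 313 in the DESeq2 Wald test, 263 with the beta-globin covariate, 459 without KO1 and WT1, 20 without WT2 and WT3, 49 at an FDR of 0.01 and 36 to 388 when single libraries were left out. The 1 class II call, H2-Ab1, became 0 to 1 when single libraries were left out, 0 without WT2 and WT3 and 0 at an FDR of 0.01. In the peptide supply list the 0 that fell became 1, Rfx5, without KO1 and WT1. Samd12, named for its likeness to B2m, turned to -0.029 without WT2 and WT3. H2-Aa, with no direction claimed, gave -0.41 without WT2 and WT3, -0.18 with the beta-globin covariate and -0.044 to 0.51 when single libraries were left out; Cd74 gave -0.26 without KO1 and WT1 and -0.10 to 0.53 when single libraries were left out. The causes were not tested. Shared replicate numbers did not show that libraries were paired: deviations correlated at 0.587, 0.310 and 0.034 for numbers 1, 2 and 3, while KO2 with WT3 gave 0.478. With a replicate block 282 genes passed (1.44%), of the 10 again 1, H2-K1, and of the peptide supply list Rfx5 as 1 that fell.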
